A study of Caenorhabditis elegans with 2 samples.

Results

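The glycolytic enzyme genes were examined as a group of 10 genes, taken by name from the Ensembl annotation of the nematode Caenorhabditis elegans, out of 19973 protein-coding genes. They are aldo-1 and aldo-2 (aldolase), gpd-1, gpd-2, gpd-3 and gpd-4 (glyceraldehyde-3-phosphate dehydrogenase), pgk-1 (phosphoglycerate kinase), enol-1 (enolase), and pyk-1 and pyk-2 (pyruvate kinase). The assay was ChIP-seq, the sequencing of DNA recovered with a protein from fixed chromatin, here with eGFP-tagged ALY-2 in 2 biological replicates. Both replicates were whole L3 larvae, males and females pooled, of strain OP217, which carries unc-119(ed3) on chromosome III and the insertion ddIs172 for tagged aly-2. There was 1 group and no control sample was analysed here, so values are compared between genes and between replicates, not between conditions. The sources used here do not give the promoter of the transgene, and whole animals mix all tissues.

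Glycolysis splits glucose into pyruvate. Aldolase cuts the sugar into triose phosphates, glyceraldehyde-3-phosphate dehydrogenase oxidises them, phosphoglycerate kinase makes ATP from the product, enolase forms phosphoenolpyruvate, and pyruvate kinase makes ATP again. Its enzymes are abundant in most animal tissues. Proteins of the Aly/REF family, to which ALY-2 belongs, join messenger RNA while it is made and processed and hand it to the nuclear export receptor, as known from yeast and human cells. ChIP of such a protein can recover DNA of transcribed genes. In worms some neighbouring genes form operons, whose downstream messages are separated by 3′ end formation and SL2 trans-splicing. The genes mai-1, gpd-2 and gpd-3 are a textbook operon of this kind.

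Sequences at the summits of 4 regions, at enol-1, aldo-1 and the gpd-2 and gpd-3 operon, are shown first, because the results turn on where these summits lie. Positions are on ce11, the assembly also called WBcel235, the letters come from the RefSeq copy of it, and each run reads 5′ to 3′ in the direction of the glycolytic gene. Capitals mark up to 21 bases centred on the summit of the pooled region, as far as the window reaches. The first window follows the annotated end of enol-1 (chrII:8933800-8934099, plus strand). The second is the start of the coding sequence of T05D4.2, the gene after aldo-1 (chrIII:13562933-13563036, minus strand). The third covers the end of the last intron and the last coding exon of mai-1, upstream of gpd-2 (chrX:3114997-3115177, minus strand), and the fourth the whole gap between gpd-2 and gpd-3 (chrX:3113342-3113442, minus strand).
enol-1 downstream: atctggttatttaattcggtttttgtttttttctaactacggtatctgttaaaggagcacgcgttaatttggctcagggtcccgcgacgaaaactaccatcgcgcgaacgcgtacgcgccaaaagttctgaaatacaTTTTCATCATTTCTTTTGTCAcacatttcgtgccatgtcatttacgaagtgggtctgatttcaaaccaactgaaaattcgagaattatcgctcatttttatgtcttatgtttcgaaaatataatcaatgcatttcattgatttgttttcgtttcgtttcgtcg
aldo-1 downstream: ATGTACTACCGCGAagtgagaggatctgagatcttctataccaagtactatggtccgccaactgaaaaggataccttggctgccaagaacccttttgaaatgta
gpd-2 upstream: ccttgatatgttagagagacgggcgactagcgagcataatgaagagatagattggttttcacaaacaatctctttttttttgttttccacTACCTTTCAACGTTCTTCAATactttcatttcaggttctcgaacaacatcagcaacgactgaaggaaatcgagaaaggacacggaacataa
gpd-2 to gpd-3 gap: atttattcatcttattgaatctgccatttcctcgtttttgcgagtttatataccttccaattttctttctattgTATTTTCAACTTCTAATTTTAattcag

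The 4 gpd genes form 2 pairs of near-identical copies, and the first 120 coding bases show how little separates them. Here capitals mark the bases that differ from the partner copy. In whole coding sequences of 1023 bases each, gpd-1 and gpd-4, both on chromosome II, differed at 10 positions (99.0% identity), and the X-linked gpd-2 and gpd-3 at 27 (97.4%). Between the pairs the identity was 78.9 to 79.5%.
gpd-1: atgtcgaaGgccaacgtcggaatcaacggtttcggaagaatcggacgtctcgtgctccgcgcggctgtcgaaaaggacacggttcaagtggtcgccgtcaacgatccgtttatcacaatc
gpd-4: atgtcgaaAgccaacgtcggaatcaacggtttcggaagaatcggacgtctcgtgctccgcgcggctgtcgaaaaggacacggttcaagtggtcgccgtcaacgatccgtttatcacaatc
gpd-2: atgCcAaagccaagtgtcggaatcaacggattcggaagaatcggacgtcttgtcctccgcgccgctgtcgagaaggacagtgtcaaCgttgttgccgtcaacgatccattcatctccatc
gpd-3: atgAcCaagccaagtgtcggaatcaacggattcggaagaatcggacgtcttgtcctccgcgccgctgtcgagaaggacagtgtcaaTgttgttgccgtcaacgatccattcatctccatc

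The deposited data are lists of regions, each with a height on a scale that the sources used here leave unnamed. Relaxed lists, which hold background regions beside peaks, were deposited for replicate 1 (30000 regions), replicate 2 (26751 regions) and the pooled replicates (17335 regions). The heights are the authors' own values. An optimal list of 368 peaks holds the pooled regions kept at a threshold of irreproducible discovery rate, and these were also the 368 highest pooled regions. Read depth is unknown, and heights and ranks are compared within a list only. A region belonged to a gene when its summit lay in the gene or within 500 bp of it. It was placed at an end when the summit lay within 500 bp of that end, taking the nearer end where both were in reach, and otherwise in the body.

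Of the 10 glycolytic genes, 1 had an optimal peak, pyk-1, and it lay at the 3′ end. The background was 2.38% of protein-coding genes with an optimal summit in reach. At 3′ ends the background was 1.29%, and at 5′ ends, where no glycolytic gene had an optimal summit, 0.891%. The count was 0 with the 368 highest regions of either replicate alone, and 0 when a summit counted only for the nearest protein-coding gene, which at this peak is F25H5.8. A further 3 genes, aldo-1 (rank 414), enol-1 (rank 597) and gpd-2 (rank 696), had a region below that list but among the highest 5% of the pooled regions. That limit was chosen after the values were seen. With pyk-1 this made 4 of 10 genes, where 5.2% of protein-coding genes had such a region. The region was at the 3′ end in 3 of them (background 2.94%) and at the 5′ end in gpd-2 (background 1.86%). In the highest 5% of each replicate list the count was 2 of 10, pyk-1 and aldo-1 in replicate 1 (7.37% of protein-coding genes) and enol-1 and aldo-1 in replicate 2 (7.28%). With a window of 250 bp it was 2, pyk-1 and enol-1 (4.03%), and 1 when a summit counted only for the nearest gene. No test was made of these counts, since the genes were chosen with results of the same data known.

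**Figure D1:**
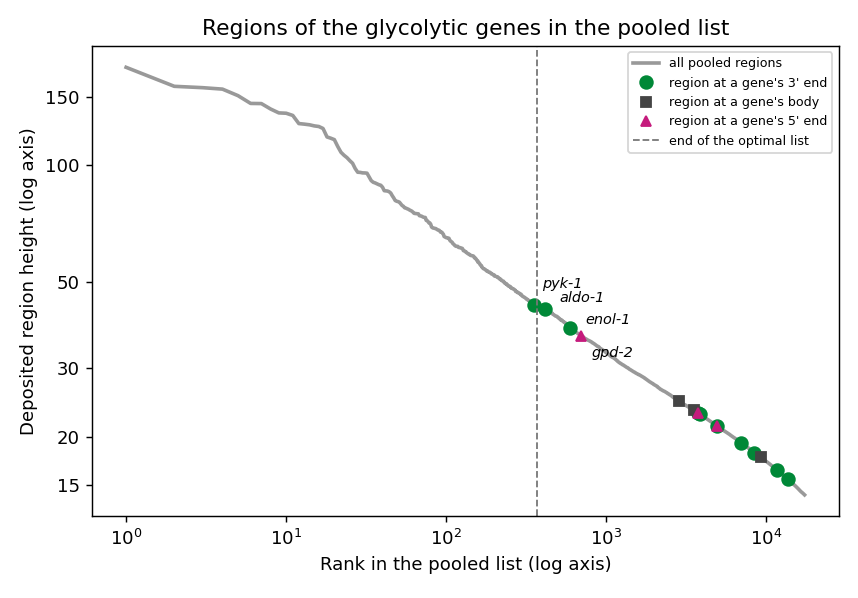
Height against rank for all pooled regions (grey line) and for the regions of the glycolytic genes (points, by place in the gene), both axes logarithmic; the dashed line is the end of the optimal list at rank 368. The region of pyk-1 (rank 356) lies just inside the line and that of aldo-1 (rank 414) just outside it, followed by enol-1 (597) and gpd-2 (696).

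Aldolase is the first enzyme of the group in the pathway, and its 2 genes differed in height. At aldo-1 (III, 13563346 to 13564937, minus strand) the only pooled region, at 13562835 to 13563230, had a height of 42.7. It ranked 414 of 17335, while the last optimal peak had rank 368 and a height of 43.6. Replicate 1 had a height of 22.4 and rank 440 at this summit, and replicate 2 a height of 20.6 and rank 944. Both replicate summits lay within 31 bp of the pooled one, so the place was shared. Each replicate had 1 other, lower region at aldo-1, in replicate 1 with a height of 6.9, 99 bp past the 3′ end, and in replicate 2 with a height of 8.8, in coding sequence 255 bp from the 5′ end. The summit was 313 bp beyond the end of aldo-1 and 49 bp inside T05D4.2, the next gene on the same strand, 263 bp away. It fell among the first coding bases of T05D4.2 shown above, so this region is at the 3′ end of one gene and at the 5′ end of another, and the list cannot assign it to either.

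aldo-2 (III, 5874673 to 5876625, minus strand) had 2 lower pooled regions that overlap each other. Their heights were 22.9 and 19.3, with ranks 3825 and 6993. The first summit, 444 bp past the 3′ end, was covered in replicate 1 (height 14.1, rank 3636) and not in replicate 2. The second, 240 bp past the end, was covered in replicate 2 (height 15.5, rank 2658) and not in replicate 1. The regions of the 2 replicates overlap each other, with summits 443 and 223 bp past the end, but neither covers both pooled summits. Both summits lay in an intron of F01F1.3, a gene on the opposite strand whose end overlaps that of aldo-2 by 34 bp.

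Glyceraldehyde-3-phosphate dehydrogenase is encoded by the paired copies shown above, and the summits in reach of them lay outside their bodies. No summit fell inside any of the 4 gpd genes in the pooled list or in either replicate list. Empty bodies were not limited to these copies. pgk-1 and aldo-2 also held no summit in any of the 3 lists, and aldo-1 held one in replicate 2 only. Of the 6 genes outside the gpd family, 3 held a pooled summit in the body, 3 a summit of replicate 1 and 4 a summit of replicate 2. Over all protein-coding genes, 30.2% held a pooled summit, 45.3% a summit of replicate 1 and 41.9% a summit of replicate 2. The gpd bodies are 1221 to 1251 bp long and share long stretches with their partners, the longest of 329 bases between gpd-1 and gpd-4 and of 262 bases between gpd-2 and gpd-3. Of all 36-base words in the body, 34.4% in gpd-1, 34.9% in gpd-4, 63.9% in gpd-2 and 64.1% in gpd-3 occurred once in the genome. The corresponding share was 96.7% in pyk-1 and 100% in the bodies of the other 5 genes, the empty bodies of pgk-1 and aldo-2 included. The sources used here do not give the read length or the treatment of reads that match several places. The part of these shared stretches in the missing summits was not tested.

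**Figure D2:**
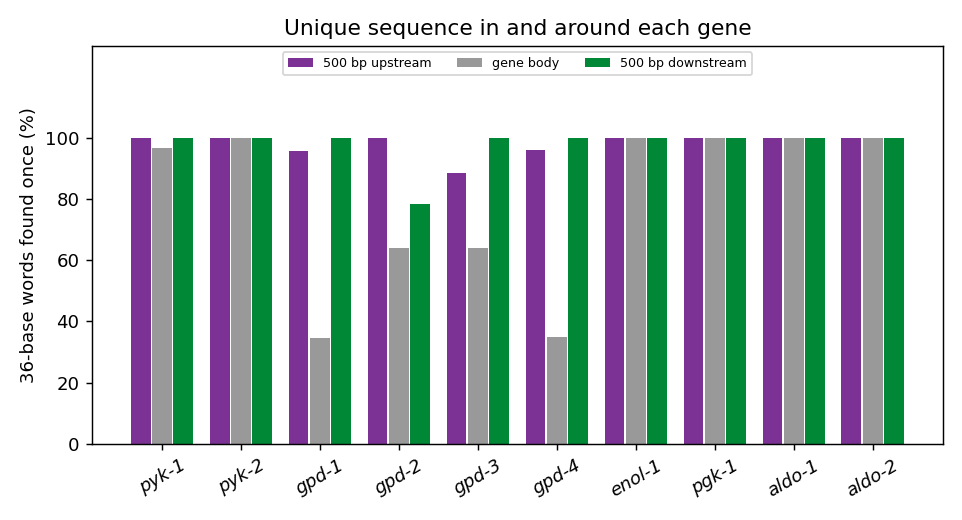
Share of 36-base words that occur once in the genome, on either strand, in the 500 bp upstream of each gene, its body and the 500 bp downstream. The 4 gpd bodies lie between 34.4 and 64.1%, while all downstream windows but that of gpd-2 (78.5%), which reaches into gpd-3, are at 100%.

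The highest pooled gpd region lay in the operon. In replicate 1 the order differed, with the region of gpd-1 (height 14.3) above those of gpd-2 (13.8) and gpd-3 (11.8). Upstream of gpd-2 (X, 3113443 to 3114689, minus strand) a pooled region at 3114879 to 3115274 had a height of 36.4 and rank 696. Its summit lay 388 bp before the annotated 5′ end of gpd-2, in the last intron of mai-1, whose record overlaps that of gpd-2 by 22 bp. The gene mai-1 encodes a relative of the mitochondrial ATPase inhibitor. Replicate 1 had a height of 13.8 (rank 3955) at this summit and replicate 2 a height of 23.5 (rank 608), but the replicate 2 summit was 523 bp from gpd-2 and so out of its reach. All 36-base words of this region occurred once in the genome.

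A second region, at 3113160 to 3113555, had a height of 23.0 and rank 3765. Its summit fell in the 101 bp gap between gpd-2 and gpd-3, 85 bp past the end of the first and 17 bp before the start of the second, under the capitals in the gap shown above. It was covered in replicate 2 (height 18.4, rank 1434) and by no region of replicate 1. In this region 80.1% of 36-base words were unique. The gap holds 26.7% G and C. The third region of the operon, at 3111826 to 3112221, lay 67 bp past the end of gpd-3 (X, 3112091 to 3113341) with a height of 21.3 and rank 4951, and both replicates covered its summit (heights 11.8 and 10, ranks 7241 and 10995).

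In the pair on chromosome II, gpd-1 (10394129 to 10395349) had a region 391 bp upstream with a height of 21.4 (rank 4897), covered only in replicate 2 (height 14.9). Another lay 250 bp downstream with a height of 16.4 (rank 11714), covered only in replicate 1 (height 14.3). Neither place was thus shared by the replicates, and both summits lay between gpd-1 and its neighbours T09F3.2 and T09F3.4. Each was nearer to the neighbour, the first 124 bp past the 3′ end of T09F3.2 and the second 108 bp before the 5′ end of T09F3.4. gpd-4 (10171268 to 10172498) had no region in any list. Its nearest pooled summit was 1202 bp away, with a height of 15.5. The 500 bp downstream of gpd-1 and of gpd-4 consisted of unique 36-base words only, and those upstream of 95.7 and 96.1% unique words. Their bodies had the lowest shares of the group.

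pgk-1, the single phosphoglycerate kinase gene of the group (I, 3867541 to 3869109), had the lowest value among the 9 genes with a pooled region. Its region had a height of 15.6 and rank 13608. The summit lay 369 bp past the end of pgk-1, in coding sequence of the next gene, coq-4, 104 bp downstream on the same strand. Replicate 2 covered it (height 15.3, rank 2787), and replicate 1 had no region in reach of the gene. The nearest replicate 1 summit was 548 bp away, just out of reach, with a height of 11.4.

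enol-1 (II, 8930997 to 8933799, plus strand) had a pooled region at its 3′ end, at 8933749 to 8934144, with a height of 38.2 and rank 597. Replicate 2 had a height of 25.5 there, rank 466, and replicate 1 a height of 16.6, rank 1739. The summits of these replicate regions were 128 bp past the end of the gene in replicate 2 and 7 bp before it in replicate 1, so both lay by the 3′ end but at different bases. Unlike the region of aldo-1, the pooled summit, 148 bp past the end, lay in intergenic sequence, with T21B10.3 starting 582 bp after enol-1 on the same strand. The summit was nearer to enol-1, but at 435 bp before the 5′ end of T21B10.3 it was also within the 500 bp reach of that gene. The window printed above holds the word CGCG 5 times without overlap, all before the capitals. On either strand, that word was in 29.3% of all pooled regions and in 6 of the 15 regions of the glycolytic genes. The word was chosen after the sequence was seen, and a match is not a binding site.

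Within enol-1, a lower pooled region lay over coding sequence, 792 bp before the 3′ end (height 24.7, rank 2859). Its summit was covered in replicate 2 (height 15.5) and in replicate 1 (height 7.8, rank 22814). No pooled region lay at the 5′ end of enol-1. Replicate 2 alone had a further region 1019 bp into the gene, with a height of 13.1.

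Among the 8 genes with a region in both replicate lists, the pyruvate kinase gene pyk-1 had the highest leading region in the pooled list and its paralog pyk-2 the lowest. pyk-1 (I, 9168432 to 9177488, plus strand), with 9057 bp the longest gene of the group, had the only optimal peak, at 9177487 to 9177882, with a height of 43.8 and rank 356. The replicate heights at this summit were 20.6 (rank 666) and 18.6 (rank 1393), and both replicate summits lay within 5 bp of the pooled one. The summit was 197 bp past the end of pyk-1 and 21 bp inside the end of F25H5.8, which faces it from the opposite strand across a gap of 175 bp. This is a pair of convergent genes, and the peak lies at the 3′ ends of both.

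A second pyk-1 region, at 9176155 to 9176550 (height 23.4, rank 3510), had its summit inside F25H5.9, a snoRNA gene in an intron of pyk-1. snoRNAs guide the modification of other RNAs. Replicate 1 covered this summit (height 16.5, rank 1814) and replicate 2 did not. The remaining pooled region, 553 bp into the gene in an intron, had a height of 17.8 (rank 9207) and was covered in replicate 2 only. Upstream of pyk-1 lies eef-2, the elongation factor 2 gene. An optimal peak of height 116.4 and rank 20 had its summit 65 bp beyond the end of eef-2. This was 1415 bp before the 5′ end of pyk-1, too far to count for it, and eef-2 was named for that after its values were seen.

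pyk-2 (IV, 10909913 to 10913078, plus strand) had a single pooled region, in an intron 293 bp before the 3′ end, with a height of 18.2 and rank 8426. Replicate 1 had a height of 13.0 there (rank 5058). Replicate 2 did not cover that summit and had its own highest region upstream, 342 bp before the 5′ end, with a height of 14.5 (rank 3396). Replicate 2 also had a lower region 48 bp past the 3′ end, with a height of 10.2 (rank 10536), which overlaps the replicate 1 region at that end. Both replicates thus had a region by the 3′ end of pyk-2, but that of replicate 2 did not cover the pooled summit.

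**Figure D3:**
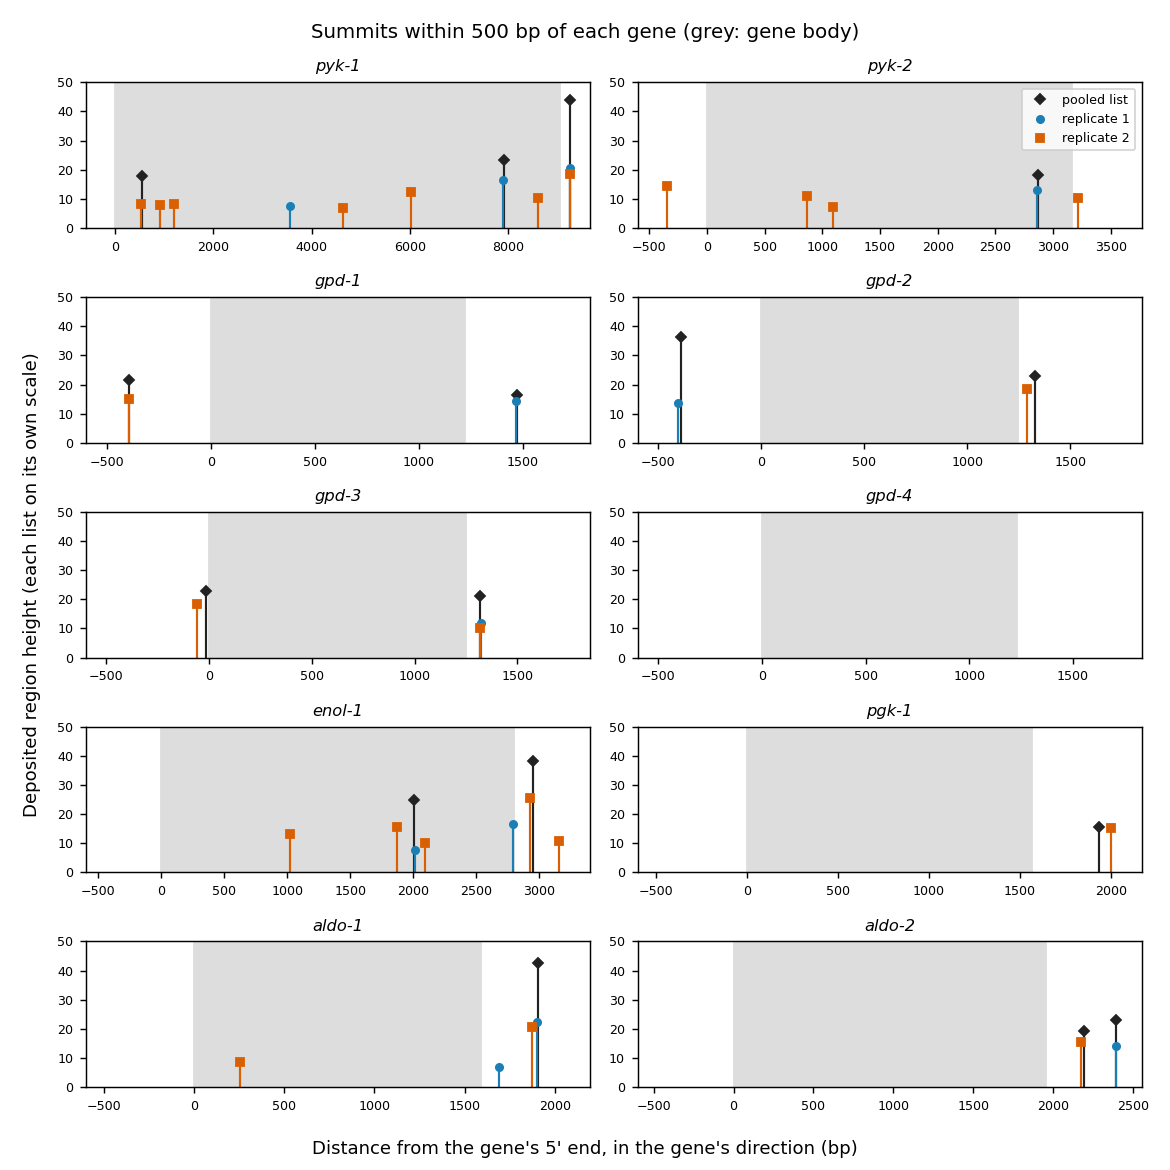
Deposited height of each region against the distance of its summit from the gene's 5′ end, for the pooled list and both replicates, with the gene body in grey, one panel per gene and each list on its own scale of height. The tallest pooled summits of pyk-1, enol-1 and aldo-1 stand past the 3′ end, the bodies of the 4 gpd genes, pgk-1 and aldo-2 hold no summit, and gpd-4 has none in reach.

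In the whole group, 9 of 10 genes had a pooled region, where 46.2% of protein-coding genes did, and 8 of 10 had a region in both replicate lists, where 44.9% did. Median gene length was 1580.5 bp in the group and 2027 bp over protein-coding genes. Relaxed lists include background, and a shared place is a stricter criterion. Of the 15 distinct pooled regions, 6 (40.0%) had their summit covered in both replicates, close to the 40.5% of all pooled regions. These 6 belonged to pyk-1, aldo-1, gpd-2, gpd-3 and, with 2 regions, enol-1. The 4 highest regions of the group were among them, and over all pooled regions of the highest 5%, 95.3% were covered in both replicates. With gpd-4 set at 100% for want of a region, the median rank of each gene's highest pooled region was at 21.9% of the list, and over all protein-coding genes, most of them without a pooled region, it was at 100%.

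**Figure D4:**
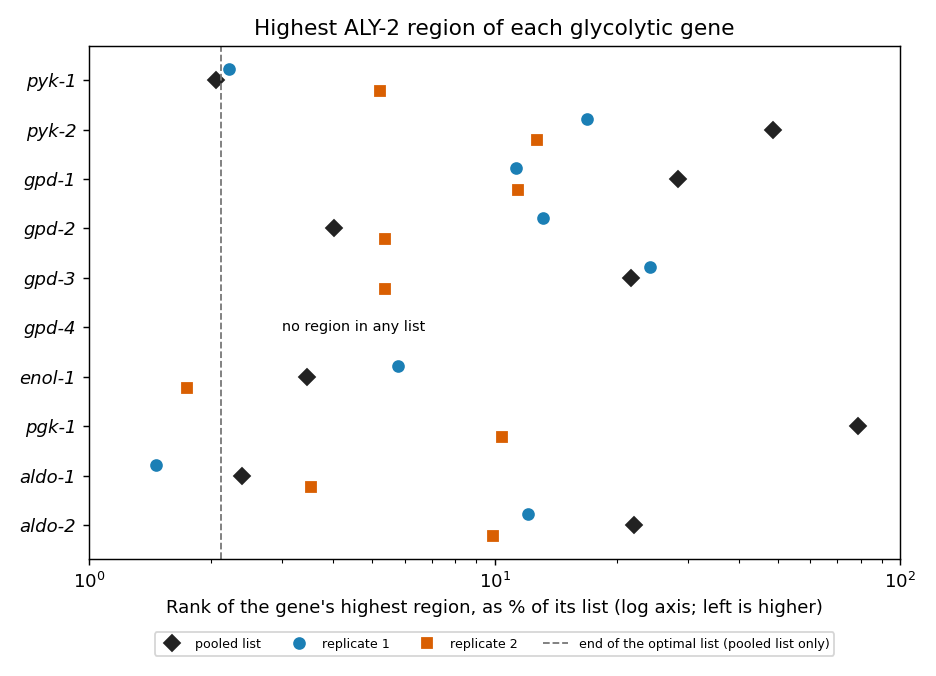
Rank of each gene's highest region as a percentage of its list, on a logarithmic axis, in the pooled list and in each replicate; the dashed line marks the end of the optimal list on the pooled scale only. Lists differ in length, so a gene is read against other genes of the same list: aldo-1, enol-1 and pyk-1 are the leading 3 genes in each list with a reach of 500 bp, which leaves out the replicate 2 region upstream of gpd-2 (rank 608, 523 bp away).

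Pooled regions of the group were mostly at 3′ ends. Counting each region for each gene it reached gave 16 pairs, of which 10 (62.5%) fell at a 3′ end. A 5′ end took 3 pairs (18.8%) and a body another 3 (18.8%). Over protein-coding genes 34.0% of 17411 pairs were at 3′ ends, with 23.9% at 5′ ends and 42.1% in bodies. Among the highest 5% of pooled regions the 3′ share was 51.1%, the 5′ share 31.9% and the body share 17.0%. A body held only summits over 500 bp from both ends, so shorter genes have less of it. The glycolytic genes were shorter, with a median of 1580.5 bp against 2027 bp over protein-coding genes. The part of gene length in these shares was not tested. Among genes with a pooled region, the highest one was at the 3′ end in 6 of 9 glycolytic genes (66.7%) and in 43.2% of 9221 protein-coding genes. In replicate 1, 8 of 12 pairs (66.7%) were at 3′ ends, where 29.8% of pairs over protein-coding genes were. In replicate 2 it was 10 of 24 (41.7%), where 30.2% were, and another 10 of the 24 lay in bodies. Of the 10 regions at a 3′ end, summits lay inside another protein-coding gene in 5, those of pyk-1, pgk-1, aldo-1 and both of aldo-2. Over all protein-coding genes this was so in 31.0% of 5914 pairs at a 3′ end.

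**Figure D5:**
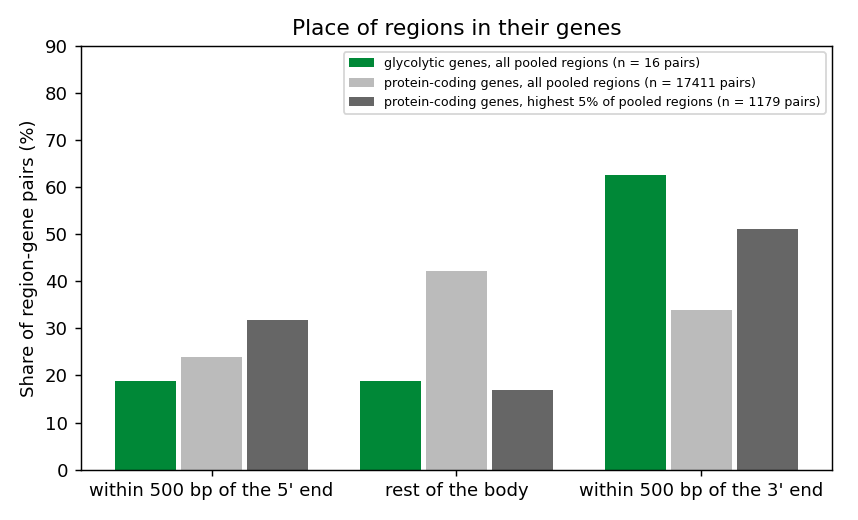
Share of region-gene pairs at the 5′ end, in the body and at the 3′ end, for the glycolytic genes with all pooled regions and for all protein-coding genes with all pooled regions and with the highest 5%. The 3′ share of the glycolytic genes is 62.5% of 16 pairs, against 34.0% for all pooled regions and 51.1% for the highest 5%.

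Base composition and short words of the group's regions were then described. The 101 bp at the summits had a median of 34.7% G and C, from 23.8 to 43.6%, against a median of 31.7% over all pooled regions. TTTCAG, a common 3′ splice site sequence of worm introns and trans-splice sites, was on either strand in 11 of 15 regions (73.3%) and in 57.2% of all pooled regions. AATAAA, the polyadenylation signal, was on either strand in 6 of 15 (40.0%) and in 65.8% of all pooled regions. On opposite strands TTTCAG and AATAAA can share up to 2 bases at their ends, and CGCG overlaps neither. These matches only describe the windows.

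The remaining enzymes of glycolysis and its reverse, gluconeogenesis, formed a list of 14 genes, of which 1 had an optimal peak (7.14%). This was pck-2, one of the phosphoenolpyruvate carboxykinase genes, with a height of 54.8 and rank 167, and its summit was 71 bp past the 3′ end. Its paralog pck-1 had a height of 42.4 and rank 423, 255 bp past the 3′ end. Both summits thus lay past the 3′ end, while among the other genes of this list the highest region lay at the 3′ end, at the 5′ end or in the body. The optimal peak at pck-2 was not counted for it when a summit counted only for the nearest protein-coding gene. A pooled region was found at 10 of the 14 genes, and the median rank of their highest region, with genes lacking one again set at 100%, was at 31.7% of the list.

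Pyruvate is passed on to pyruvate dehydrogenase and the citric acid cycle, for which 22 genes were listed. Of these, 3 had an optimal peak (13.6%), at the 3′ end of the citrate synthase gene cts-1 (height 71.0, rank 79) and at the 5′ ends of dld-1 (66.8, rank 95) and the aconitase gene aco-2 (50.8, rank 218). The protein of dld-1 is the dihydrolipoamide dehydrogenase subunit. A pooled region was found at 19 of the 22 genes, and the median rank was at 23.3%.

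Genes for cytosolic ribosomal proteins, 81 by name, were set beside them as another group with abundant messages. An optimal peak was found at 18 of them (22.2%), at the 5′ end in 12 and at the 3′ end in 9, and the median rank was at 7.18% of the list. Among the 10 glycolytic genes the corresponding counts were 1, 0 and 1. A region among the highest 5% was found at 40.0% of the 10 glycolytic and 44.4% of the ribosomal protein genes. That limit was chosen after the values were seen. The share was 27.3% for the pyruvate dehydrogenase and citric acid cycle genes and 14.3% for the 14 remaining glycolysis and gluconeogenesis genes. A pooled region was found at 90% of the glycolytic genes and at 71.4% of those 14. It was found at 86.4% of each of the other 2 lists. The share of the 10 glycolytic genes was thus below the ribosomal one for optimal peaks and near it by these wider criteria. By median rank, at 21.9% against 7.18% of the list, the glycolytic genes stood lower than the ribosomal ones. By both wider criteria the 14 remaining genes had lower shares than the 10. By a region in both replicate lists they did not, with 85.7% against 80.0%. That share was 68.2% for the pyruvate dehydrogenase and citric acid cycle genes and 84.0% for the ribosomal protein genes. The difference between these lists was not tested.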

How the data were processed

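ChIP-seq regions of eGFP-tagged ALY-2 were analysed in 2 biological replicates of L3 larvae. The authors deposited region lists on ce11, and the height of a region is the signal they deposited in its signal column, whose scaling is not stated. The aligner, peak caller and read length are likewise not given in the sources used here. Per the file records, each relaxed list was made from alignments and 1 further file, which also entered the control-normalised tracks. Lists on ce10 were not used here. Library fragments were 150 to 350 bp, per the labels. No counts were used, so depth is unknown and no interval is given.

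Genes came from Ensembl release 115, using gene records and their outermost ends, and sequence from the RefSeq copy of the same assembly. All regions lay within its chromosome lengths. Ranks follow height, ties sharing the smallest number. Words of 36 bases, and of 50 as a check, were counted on both strands of the whole genome. Copies were aligned globally with Biopython 1.88 (match 1, mismatch -1, gap -4 and -0.5). Placement of summits was checked on simulated data. The members and lists were chosen with earlier results of these data known, the ribosomal list by gene name. All members were named, with genes at their summits and, of each other list, up to 4 genes with the highest optimal peaks; pck-1, eef-2, F25H5.9 and T09F3.4 were named after their values were seen. No test was run, as there was 1 group. Alternatives changed the window, the assignment, the list or the replicate. Python 3.11.15, pandas 2.3.3 and matplotlib 3.10.9 were used.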

Additional observations from a re-analysis of the deposited data

How the results depend on the processing

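Relaxed lists, an unknown depth and 2 replicates limit these values, and each result is a count of few genes. The optimal peak at pyk-1 starts at 9177487 and the gene ends at 9177488, so the peak overlaps only the last bases. By overlap with the gene body the number of glycolytic genes with an optimal peak was thus 1. Windows of 250 or 1000 bp also left that number at 1. It was 0 when a summit counted only for the nearest protein-coding gene, among the higher-ranked 184 optimal peaks, and with the 368 highest regions of either replicate alone (0 to 0), and 4 with the highest 5% of pooled regions. The last was chosen after seeing the data, and fell to 2 with a window of 250 bp, 1 by nearest gene and 2 in the highest 5% of either replicate list (2 to 2). In the nearest-gene setting the other glycolysis list also had 0 and the pyruvate dehydrogenase and citric acid cycle list 0. That list had 1 gene with a window of 250 bp and 1 by overlap with the body.

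Glycolytic genes with a pooled region numbered 5 by overlap with the body and 4 by nearest gene. Those with a region in both replicates numbered 5 with a window of 250 bp, by overlap with the body, by nearest gene, and when 1 pooled summit had to be covered in both, a setting added later. For these settings no share over all protein-coding genes is given, so the counts cannot be set against other genes. When ends reached 250 bp, 6 regions were at 3′ ends and 1 at a 5′ end. Replicate lists alone gave 8 to 10 regions at 3′ ends, 1 to 4 at 5′ ends and 3 to 10 in bodies, the last 10 coming from replicate 2 (without replicate 1). The median rank moved from 21.9% to 44.5% of the list with a window of 250 bp. It was at 12.7% in replicate 1 and 7.65% in replicate 2, whose lists are longer. Over all protein-coding genes it was at 64.4% in replicate 1 and 76.1% in replicate 2. The cause of these shifts was not tested. Single genes moved too: aldo-1 had no pooled region with a window of 250 bp. The highest pooled region of pgk-1 moved from 78.5% to 17.6% of the list with a window of 1000 bp. Words of 50 bases gave unique shares of 42.0 to 73.2% in the gpd bodies.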
